A study of Mus musculus with 4 samples.

Results

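Rab GTPase genes were followed in splenic CD4+ T cells that had or had not switched on an Il10 reporter 24 h after antigen. The genes were taken by name: every symbol in the deposited log2 table made of Rab, a number and at most 1 letter, so that Rab-binding proteins were left out. This gave 35 genes of the 9546 symbols in that table, and 35 of the 9608 genes with enough counts for a test. A further 24 Rab genes in the count table lay below the minimum of 10 counts over the 4 libraries and were not tested. Of these 24, 14 had 0 counts in every library and none had more than 7 reads in all.

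Rab proteins are small GTPases that mark the membranes of a cell. In the GTP-bound state each one recruits effectors, such as tethers, motors and adaptors, that move or fuse vesicles at a given compartment, and exchange factors and GTPase activating proteins switch it on and off. In T cells, Rab proteins of the recycling endosome carry the T cell receptor back to the contact with the antigen presenting cell, those of the Golgi carry newly made cytokines, and Rab27a is required for the release of cytotoxic granules.

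The data were 4 libraries of messenger RNA, replicates 1 and 2 of each population, Il10-EGFP+ and Il10-EGFP- T cells. All came from spleens of Tg4 Nr4a3-Tocky Il10-EGFP mice, whose T cells bear a transgenic receptor for an epitope of myelin basic protein. The mice also carry a fluorescent Timer protein that reports Nr4a3 transcription downstream of that receptor, and EGFP as a reporter of Il10. Every mouse had received 4 mg/kg of the modified peptide [4Y]-MBP under the skin, and both populations were sorted as CD4+ and Timer+, so that the comparison is between activated T cells with and without the Il10 reporter and holds no unimmunised cells. Both males and females were used in the study, and the ages of the mice are not given in the sources used here.

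The libraries held from 644679 to 730330 counts, and mitochondrial genes took 10.71% and 10.59% of them in Il10-EGFP- libraries against 12.05% and 11.42% in Il10-EGFP+ libraries, without overlap. Il10 had 0 reads in both Il10-EGFP- libraries and 29 and 41 reads in Il10-EGFP+ replicates 1 and 2, in the direction of the labels. Cd4 and Cd3e were counted in every library, Cd4 at 153 and 149 reads in Il10-EGFP- and at 162 and 209 reads in Il10-EGFP+ T cells, and Cd3e at 88 and 62 against 99 and 97. None of 10 T cell markers was called. Marker lists of other cells went in both directions. Levels are given as CPM, the reads of a gene scaled to a common library size with TMM factors. The summed level of 13 B cell and plasma cell markers was 151 and 228 CPM in Il10-EGFP- and 606 and 656 CPM in Il10-EGFP+ libraries. Of the 11 tested markers 6 were called higher, beside 2.35% of all genes, and none of the 13 was at 0 in every library. For 12 myeloid markers the sums were 111 and 138 against 384 and 199 CPM, with 2 of 9 tested called higher and Adgre1 and Cd14 at 0 in every library. For 6 markers of CD8 or NK cells the sums were lower in Il10-EGFP+ libraries, 36.4 and 53.7 against 29.9 and 30.1 CPM. Of these, 0 of 4 tested were called and Ncr1 was at 0 in every library. The sums of 4 platelet markers were at most 2.9 CPM, and 0 of them could be tested. The part of these cells, and of the mitochondrial share, in the Rab values below was not tested. In bulk RNA, fewer cells of a type and less RNA per cell cannot be told apart.

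The share of the messenger RNA taken by the Rab family as a whole overlapped between the populations. The 35 genes held 1888 and 1802 reads in Il10-EGFP- replicates 1 and 2 and 1638 and 1825 reads in Il10-EGFP+ replicates 1 and 2. These were 0.259% (95% Wilson interval 0.247% to 0.27%) and 0.262% (0.251% to 0.275%) of all counts in Il10-EGFP-, and 0.254% (0.242% to 0.267%) and 0.261% (0.249% to 0.273%) in Il10-EGFP+ T cells. The 4 intervals overlapped. Such intervals cover counting error only. The libraries read the 3′ end of each transcript, so counts were set side by side between genes without division by length, and how well each 3′ end was captured was not measured.

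No Rab gene differed between the populations at an adjusted p under 0.05. Of the 35 genes, 0 passed the quasi-likelihood test of edgeR, adjusted after Benjamini-Hochberg over all 9608 genes, in which 4.09% of all genes were called. At an unadjusted p under 0.05 there were 4 Rab genes, Rab29, Rab19 and Rab4b with positive and Rab10 with negative fold changes, beside 15.5% of all genes. DESeq2's Wald test also called 0 of the 35, beside 1.17% of all genes, with 2 at an unadjusted p under 0.05 and 17 given no adjusted p. limma on the deposited log2 values called 1, Rab29, beside 4.26% of all genes. Rab29 was also the 1 Rab gene called by edgeR when 10 counts were required in every library, a limit that 19 Rab genes met and at which 7.46% of all genes were called. A fit with the replicate number as a block called 2 Rab genes, Rab29 and Rab10, beside 5.83% of all genes. The methods speak of replicate pairs, but the sources used here do not say which libraries share a mouse. The p-values measure the spread between these libraries.

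**Figure D1:**
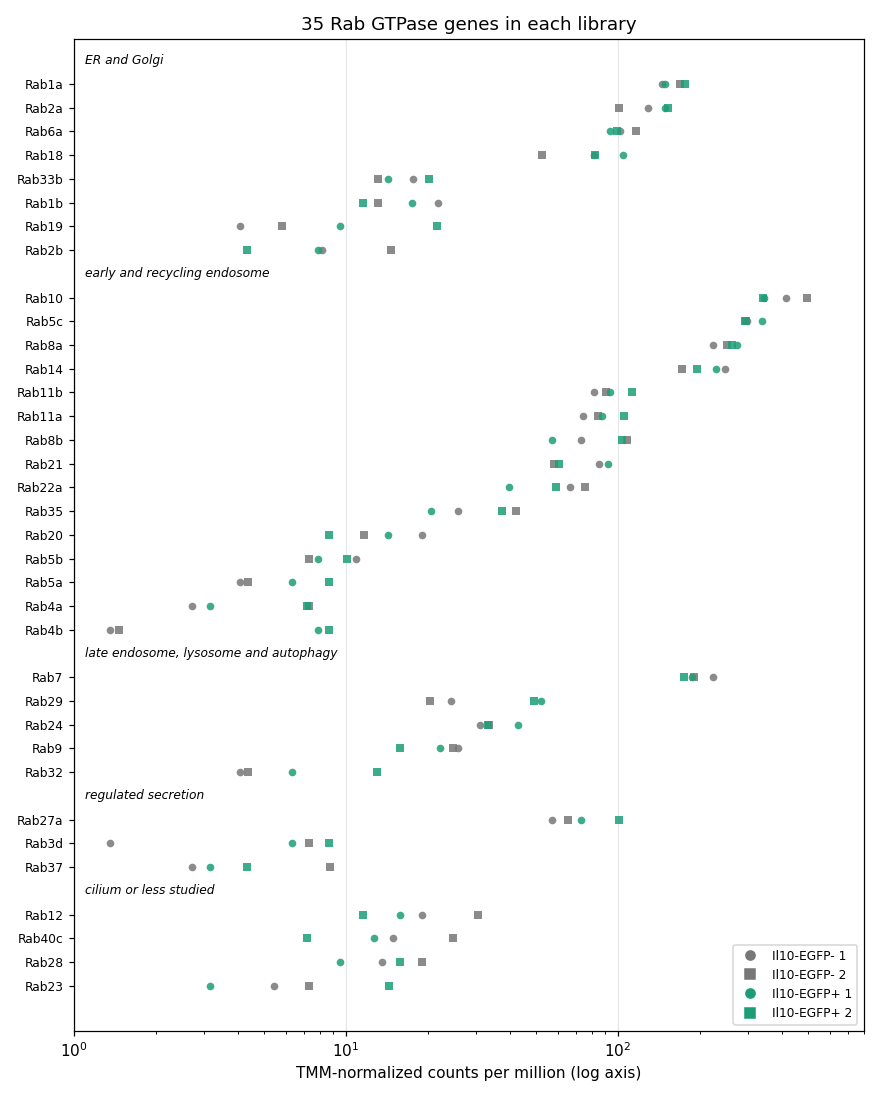
Level of each of the 35 Rab genes in every library, in TMM-scaled CPM on a log axis, grouped by the compartment the protein is known for; gray points are Il10-EGFP- and green points Il10-EGFP+ libraries, circles replicate 1 and squares replicate 2. Levels ran from Rab10 at 342 to 495 CPM down to genes such as Rab4b at 1.36 to 8.66 CPM, and for 16 genes the 2 populations overlapped.

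Both Il10-EGFP+ libraries were above both Il10-EGFP- libraries for 11 Rab genes (31.4%), beside 22.3% of all genes tested, and below them for 8 (22.9%), beside 22.3% of all genes. The other 16 overlapped, so that 19 of 35 did not, beside 44.6% of all genes. The log2 fold change of Il10-EGFP+ over Il10-EGFP- was above 0 for 20 genes and below 0 for 15, with a median of 0.07 against 0.00 for all genes and a range from -0.99 to 2.42. With each library left out in turn, 23 of the 35 genes kept the sign of the fold change in all 4 fits, and these included the 19 genes whose populations did not overlap.

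How closely a difference could be measured depended on the counts. The genes held from 13 to 1101 counts over the 4 libraries. For the 14 genes that averaged at least 50 counts per library, the standard errors of the log2 fold change were 0.147 to 0.265, the fold changes lay between -0.41 and 0.51, and for 13 of them the 95% interval stayed within a 2-fold change in either direction. For the 21 genes that averaged fewer, this held for 2. The interval included 0 for 31 of the 35 genes, the exceptions being the 4 with an unadjusted p under 0.05.

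**Figure D2:**
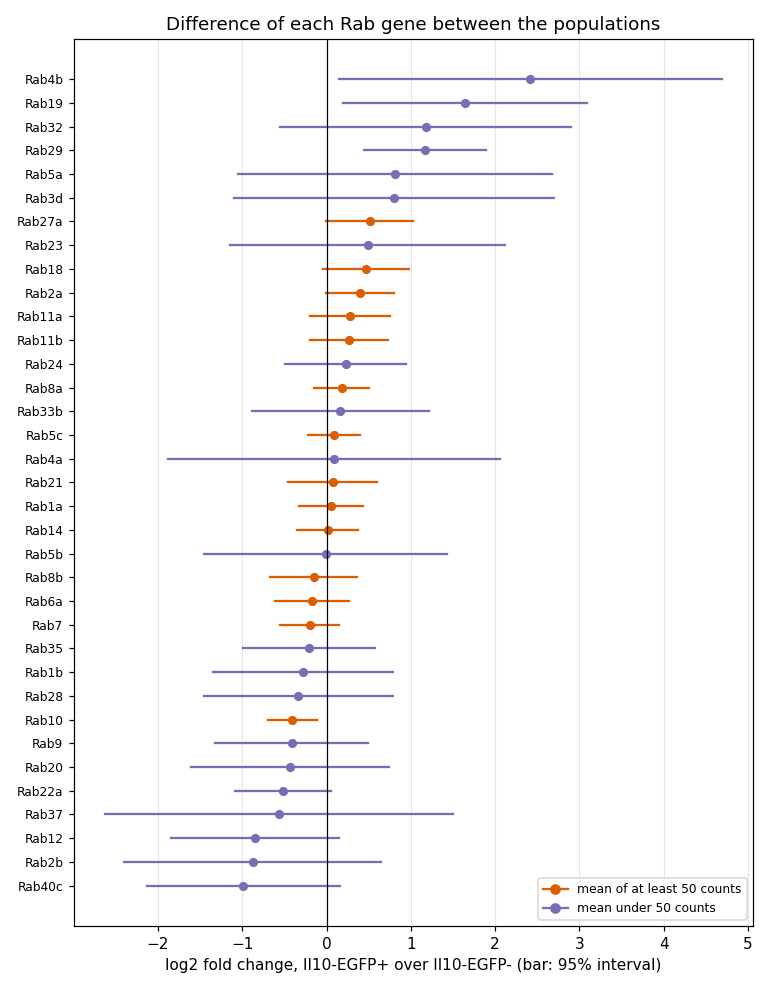
Log2 fold change of Il10-EGFP+ over Il10-EGFP- T cells for the 35 Rab genes in edgeR's quasi-likelihood fit, sorted by size, with bars for the 95% interval; orange marks genes averaging at least 50 counts per library and purple those under 50. The intervals of Rab29, Rab19, Rab4b and Rab10 left out 0, and the widest intervals belonged to genes with few counts.

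Rab29, which acts at the trans-Golgi network and on stressed lysosomes and is known for recruiting the kinase LRRK2, came closest to the threshold. It lies on chromosome 1 (GRCm38, chr1:131867224-131872887, plus strand, ENSMUSG00000026433). It had 18 and 14 reads in Il10-EGFP- replicates 1 and 2 and 33 and 34 reads in Il10-EGFP+ replicates 1 and 2. The Il10-EGFP+ libraries were well above both others, and the replicates of each population lay close together. In CPM the means were 22.4 ± 2.83 without and 50.7 ± 2.29 with the reporter (SD, n = 2 libraries each). This was a log2 fold change of 1.16 (standard error 0.362, 95% interval 0.44 to 1.89), with an adjusted p of 0.0526 in edgeR's quasi-likelihood test. Over the alternatives the adjusted p ran from 0.0252, with at least 10 counts in every library, to 0.452 with DESeq2, and it was 0.0441 with limma on the deposited log2 values and 0.0364 with the replicate block. With each library left out in turn the log2 fold change stayed between 1.05 and 1.30, with adjusted p-values of 0.12 to 0.22. On the deposited log2 scale, which pulls low counts towards the mean, Rab29 was at 4.49 and 4.46 in Il10-EGFP- and at 4.72 and 4.70 in Il10-EGFP+ libraries, a difference of 0.24. No exon of another gene overlapped Rab29 in the annotation, and the last 300 bases of its transcripts shared no sequence of 50 bases with another gene.

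Rab10, which carries cargo from the recycling endosome and the trans-Golgi network to the plasma membrane, was the most counted Rab gene and lay on the other side. It lies on chromosome 12 (GRCm38, chr12:3247428-3309969, minus strand, ENSMUSG00000020671). It had 307 and 339 reads in Il10-EGFP- and 218 and 237 reads in Il10-EGFP+ replicates 1 and 2. The populations did not overlap, with the Il10-EGFP+ libraries lower. In CPM the means were 456 ± 55.1 without and 344 ± 2.48 with the reporter (SD, n = 2 each), a log2 fold change of -0.41 (standard error 0.147, 95% interval -0.70 to -0.11) with an adjusted p of 0.109 in edgeR's quasi-likelihood test. Over the alternatives the adjusted p ran from 0.0376, with the replicate block, to 0.558, with Il10-EGFP- replicate 2 left out. The block was the 1 alternative that called Rab10. Its log2 fold change stayed between -0.53 and -0.28 with each library left out in turn. Exons of Rab10 overlap Rab10os on the other strand, which had 25 and 30 reads in Il10-EGFP- and 19 and 13 reads in Il10-EGFP+ libraries. Whether the counting used strand is not given in the sources used here, so reads of the overlapping stretch cannot be told apart.

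The sequences just upstream of these genes are shown because Rab29 and Rab10 had the smallest p-values of the family and fold changes of opposite sign. They are the bases of the RefSeq promoter windows on GRCm38 that lie before both the RefSeq and the GENCODE start, printed on the strand of the gene.
Rab29, 197 bases, chr1:131867027-131867223, plus strand: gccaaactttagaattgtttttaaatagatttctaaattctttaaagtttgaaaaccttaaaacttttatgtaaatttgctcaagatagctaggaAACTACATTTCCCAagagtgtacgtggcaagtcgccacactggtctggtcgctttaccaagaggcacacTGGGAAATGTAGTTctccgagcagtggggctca
Rab10, 250 bases, chr12:3309970-3310219, minus strand: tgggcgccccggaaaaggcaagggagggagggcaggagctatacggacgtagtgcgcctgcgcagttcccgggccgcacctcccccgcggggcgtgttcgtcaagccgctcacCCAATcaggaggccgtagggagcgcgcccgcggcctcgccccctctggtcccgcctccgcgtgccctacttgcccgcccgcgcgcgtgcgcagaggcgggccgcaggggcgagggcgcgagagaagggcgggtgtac
In Rab29 the capitals mark an inverted repeat, a stretch of 14 bases whose reverse complement stands again further on. In Rab10 they mark a CCAAT box. G and C made up 39.1% of the Rab29 and 74.8% of the Rab10 sequence. Windows of 300 bases, from 250 before to 50 after each start, were searched on both strands in 32851 promoters, which included 31 of the 35 Rab genes. An exact inverted repeat of at least 14 bases, looked for after the Rab29 sequence was seen, was in 0.341% of all promoters and in those of Rab29 and Rab22a. CCAAT was in 37.4% of all promoters and in 17 of the 31. CACGTG, the E-box bound by MYC and by regulators of lysosome genes, was in 7.15% of all promoters and in 6 of the 31, those of Rab20, Rab21, Rab23, Rab24, Rab27a and Rab5a. These are matches of letters and no measurement of binding.

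**Figure D3:**
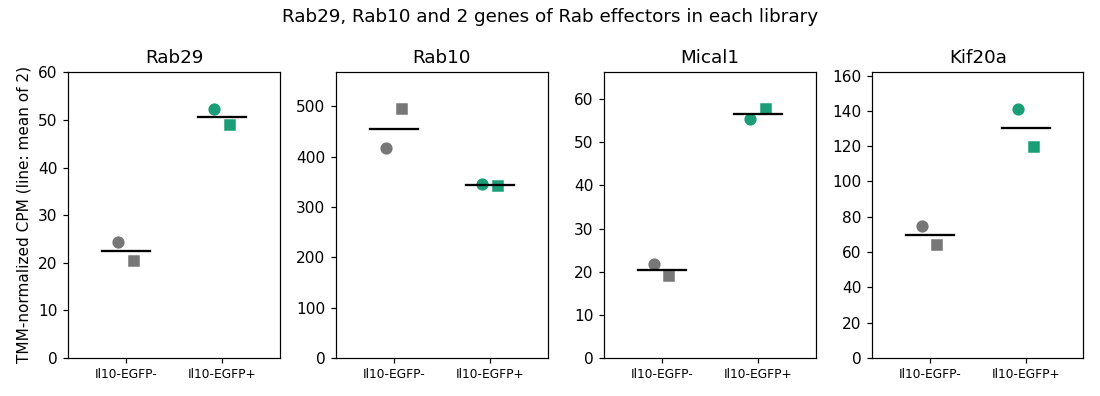
Level of Rab29, Rab10, Mical1 and Kif20a in every library, in TMM-scaled CPM on axes that start at 0; gray is Il10-EGFP-, green is Il10-EGFP+, circles are replicate 1, squares are replicate 2 and lines are the means of 2 libraries. The populations did not overlap for any of the 4 genes, with Rab29, Mical1 and Kif20a higher and Rab10 lower in both Il10-EGFP+ libraries.

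Among Rab genes of the endoplasmic reticulum and Golgi, 0 of 8 passed the test, 3 had both Il10-EGFP+ libraries on top, 2 had both below and 3 overlapped. The summed level of the 8 genes was 509 and 486 CPM in Il10-EGFP- and 545 and 568 CPM in Il10-EGFP+ libraries, and their median log2 fold change was 0.11. Rab1a, which directs transport from the endoplasmic reticulum to the Golgi, had 107 and 116 reads in Il10-EGFP- and 94 and 122 reads in Il10-EGFP+ libraries. The populations overlapped for Rab1a, and the 95% interval of its log2 fold change was -0.33 to 0.43. Rab2a, which acts between the Golgi and the endoplasmic reticulum and on late endosomes, had 95 and 69 reads in Il10-EGFP- and 94 and 106 reads in Il10-EGFP+ libraries. Scaled to library size, both Il10-EGFP+ libraries of Rab2a were above both others, and the log2 fold change was 0.39 (standard error 0.201) and an adjusted p of 0.35 in edgeR's quasi-likelihood test. Rab6a, which runs traffic within and out of the Golgi, had 75 and 80 reads against 59 and 69 and a log2 fold change of -0.18 (adjusted p of 0.795, edgeR), without overlap of the scaled levels. Its exons overlap those of Mrpl48 on the other strand. Rab18, known from lipid droplets and the endoplasmic reticulum, had 60 and 36 reads in Il10-EGFP- and 66 and 57 reads in Il10-EGFP+ libraries. The 2 Il10-EGFP- libraries of Rab18 differed more from each other than the nearest libraries of the 2 populations did, and the log2 fold change was 0.47 with an adjusted p of 0.391 in edgeR's test.

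The rest of this group had few counts. Rab33b, a Golgi protein that also binds the autophagy factor ATG16L1, had 13 and 9 reads against 9 and 14, and the last 300 bases of its transcripts also occur in part, over 50 bases or more, in 83 other genes, and its count is uncertain. Rab1b had 16 and 9 reads against 11 and 8. Rab2b had 6 and 10 reads against 5 and 3, and overlaps Tox4 on the other strand. Rab19 had 3 and 4 reads in Il10-EGFP- and 6 and 15 reads in Il10-EGFP+ libraries. Its log2 fold change of 1.64 (95% interval 0.19 to 3.09, adjusted p of 0.238 in edgeR's test) moved between 0.92 and 2.10 with each library left out in turn, and Il10-EGFP+ replicate 2 held most of its counts.

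The early and recycling endosome group held 15 genes and most of the family's counts. The sums were 1630 and 1706 CPM in Il10-EGFP- and 1616 CPM in each Il10-EGFP+ library. The test called 0 of 15 genes, beside 4.09% of all genes, and the median log2 fold change was 0.07. The Il10-EGFP+ libraries were on top for 5 genes (33.3%) and below for 2 (13.3%), Rab10 and Rab22a, each beside 22.3% of all genes. The other 8 overlapped. Rab5c, which directs fusion at the early endosome, had 219 and 203 reads in Il10-EGFP- and 213 and 204 reads in Il10-EGFP+ libraries. These levels overlapped, and the log2 fold change was 0.09 with a 95% interval of -0.22 to 0.40. Rab14, which works between the trans-Golgi network and endosomes, had 182 and 118 reads against 145 and 135. Its levels overlapped as well, with a log2 fold change of 0.01 and an interval of -0.35 to 0.37. Rab8a, an exocytic Rab of the recycling route that binds several of the same partners as Rab10, had 165 and 172 reads against 173 and 182. Both Il10-EGFP+ libraries of Rab8a were above both others after scaling, by a log2 fold change of 0.18 with an interval of -0.15 to 0.50.

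Rab11a and Rab11b, the central pair of the recycling endosome, had fold changes of like size. Rab11a had 55 and 58 reads in Il10-EGFP- and 55 and 73 reads in Il10-EGFP+ libraries, and Rab11b had 60 and 62 reads against 59 and 78. After scaling, both Il10-EGFP+ libraries were above both others for each gene, with log2 fold changes of 0.28 (95% interval -0.20 to 0.75) for Rab11a and 0.27 (-0.19 to 0.73) for Rab11b and adjusted p-values of 0.648 and 0.654 in edgeR's test. Rab35, which controls a fast recycling route that carries the T cell receptor, had 19 and 29 reads in Il10-EGFP- and 13 and 26 reads in Il10-EGFP+ libraries. The populations overlapped for Rab35, and its interval was -0.99 to 0.58. Rab22a, which acts in sorting from early endosomes to recycling, had 49 and 52 reads in Il10-EGFP- and 25 and 41 reads in Il10-EGFP+ libraries. Both Il10-EGFP+ libraries of Rab22a were lower, by 71.2 ± 6.62 CPM against 49.4 ± 13.8 CPM (SD, n = 2 each), with a log2 fold change of -0.52 and an adjusted p of 0.402 in edgeR's test. Rab21, known for integrin traffic, had 63 and 40 reads against 58 and 42, and the replicates of each population differed more than the population means did. Rab20, which acts on maturing phagosomes, had 14 and 8 reads against 9 and 6.

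Within 5 of the 6 sets of paralogs, genes with the same number and different letters, the most counted gene was the same in every library. Rab5c made up 95.2% and 96.2% of the Rab5 reads in Il10-EGFP- libraries against 95.9% and 94.0% in Il10-EGFP+ libraries. Rab2a made up 94.1% and 87.3% of the Rab2 reads in Il10-EGFP- libraries against 94.9% and 97.2% in Il10-EGFP+ libraries, and Rab1a 87.0% and 92.8% against 89.5% and 93.8% of the Rab1 counts. Rab8a held 75.3% and 69.9% of the Rab8 reads in Il10-EGFP- and 82.8% (95% Wilson interval 77.1% to 87.3%) and 71.7% (65.8% to 76.8%) in Il10-EGFP+ libraries, and its paralog Rab8b had 54 and 74 reads against 36 and 72. Rab11a and Rab11b shared their counts almost evenly, with Rab11b at 52.2% and 51.7% in Il10-EGFP- libraries against 51.8% and 51.7% in Il10-EGFP+ libraries. The populations overlapped for the shares of Rab5c, Rab1a and Rab8a, and for Rab2a the Il10-EGFP+ shares were the higher ones, with Wilson intervals that overlapped.

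**Figure D4:**
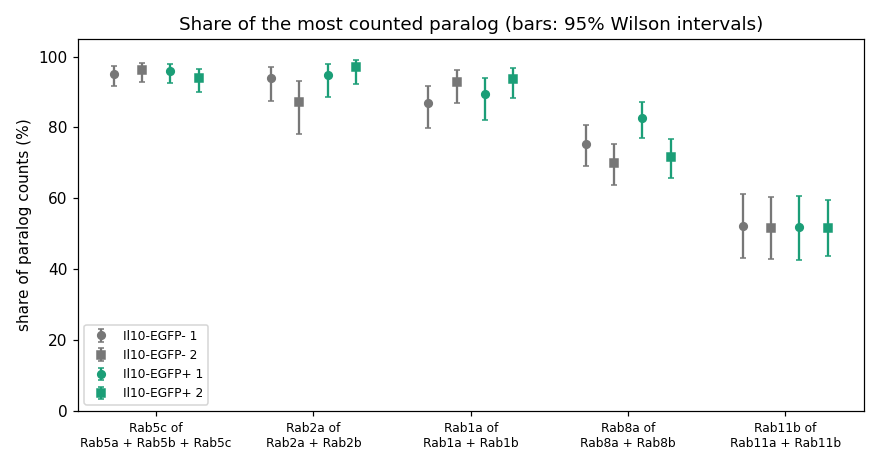
Share of the most counted gene among the counts of its paralogs, in percent, for 5 sets in each library; gray is Il10-EGFP-, green is Il10-EGFP+, circles are replicate 1, squares are replicate 2 and bars are 95% Wilson intervals. Rab5c, Rab2a and Rab1a held 87.0% to 97.2% of their sets, while Rab11b stayed between 51.7% and 52.2%.

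The Rab4 set, which serves rapid recycling from early endosomes, was the exception and held few counts. Rab4a had 2 and 5 reads in each population. Rab4b had 1 read in each Il10-EGFP- library and 5 and 6 reads in Il10-EGFP+ replicates 1 and 2, a ratio of 5.9 with an exact 95% interval from 1.29 to 54.8. This and the other exact intervals below pool the reads of the 2 libraries of a population and cover counting error only. In CPM Rab4b was at 1.41 ± 0.0719 against 8.29 ± 0.519 (SD, n = 2 each), with an adjusted p of 0.278 in edgeR's quasi-likelihood test. Rab4a therefore made up 2 of 3 and 5 of 6 Rab4 reads in Il10-EGFP- and 2 of 7 and 5 of 11 in Il10-EGFP+ libraries. These shares were lower in both Il10-EGFP+ libraries, at 28.6% and 45.5% against 66.7% and 83.3%, but rest on few reads. Their Wilson intervals reached from 20.8% to 93.9% in Il10-EGFP- replicate 1 and from 8.22% to 64.1% in Il10-EGFP+ replicate 1. For replicate 2 they reached from 43.6% to 97.0% and from 21.3% to 72.0%. The intervals overlapped, and a difference in the share was not tested. The end of Rab4b also shares 245 sequences of 50 bases with Gm21983, a gene on the same strand with 0 counts in every library. Rab5a and Rab5b were equally sparse beside Rab5c. Rab5a had 3 and 3 reads against 4 and 6, a ratio of 1.79 with an exact interval from 0.589 to 5.99, and Rab5b had 8 and 5 reads against 5 and 7.

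Among the 5 genes of the late endosome, lysosome and autophagy group, which includes Rab29, the 4 others did not pass the test either. In that test 4.09% of all genes were called. Rab7, which directs traffic to lysosomes, was the most counted, with 165 and 131 reads in Il10-EGFP- and 118 and 121 reads in Il10-EGFP+ libraries. After scaling, Rab7 was lower in both Il10-EGFP+ libraries, with a log2 fold change of -0.20, a 95% interval of -0.56 to 0.15 and an adjusted p of 0.659 in edgeR's test. Rab9, which returns mannose 6-phosphate receptors from late endosomes to the Golgi, had 19 and 17 reads against 14 and 11 and a log2 fold change of -0.42 (adjusted p of 0.755, edgeR). Rab32, a Rab of lysosome-related organelles, had 3 reads in each Il10-EGFP- library and 4 and 9 in the Il10-EGFP+ libraries, a ratio of 2.33 with an exact interval from 0.825 to 7.46. Rab24, linked to autophagy, had 23 reads in each Il10-EGFP- library and 27 and 23 in the Il10-EGFP+ libraries, and its exons overlap those of Prelid1 on the other strand, which held 147 counts. The summed level of the group was 309 and 274 CPM in Il10-EGFP- and 311 and 286 CPM in Il10-EGFP+ libraries, which overlapped.

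Of the Rab genes of regulated secretion, Rab27a was the one with a mean above 5 counts. Rab27a docks secretory and cytotoxic granules at the plasma membrane. It had 42 and 45 reads in Il10-EGFP- replicates 1 and 2 and 46 and 70 reads in Il10-EGFP+ replicates 1 and 2. Scaled to library size, Rab27a was higher in both Il10-EGFP+ libraries, at 61.3 ± 6.12 CPM against 86.9 ± 19.9 CPM (SD, n = 2 each), and the spread within Il10-EGFP+ T cells was wide. The log2 fold change was 0.51 (standard error 0.259, 95% interval -0.01 to 1.03) and the adjusted p was 0.34 in edgeR's quasi-likelihood test. With each library left out in turn the fold change kept its sign and lay between 0.25 and 0.72. Rab3d, a Rab of secretory granules, had 1 and 5 reads against 4 and 6, and Rab37, known from granules of mast cells, had 2 and 6 reads against 2 and 3. The populations overlapped for Rab3d and Rab37. Rab27b, the closest relative of Rab27a, had 0 counts in every library, and so had Rab3b, Rab3c and Rab44.

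In the remaining group, of Rab proteins tied to cilia or less studied, 0 of 4 genes passed the test, beside 4.09% of all genes. Of the 4 fold changes 3 were negative, beside 4804 of all 9608 genes. Rab40c, which serves as the substrate adaptor of a ubiquitin ligase, had 11 and 17 reads in Il10-EGFP- and 8 and 5 reads in Il10-EGFP+ libraries. The populations did not overlap, and Rab40c had the most negative log2 fold change of the family, -0.99 (95% interval -2.14 to 0.15, adjusted p of 0.427 in edgeR's test). Rab12, which sends transferrin receptors to lysosomes, had 14 and 21 reads against 10 and 8 and a log2 fold change of -0.85 (interval -1.85 to 0.15, adjusted p of 0.436, edgeR). Rab28 had 10 and 13 reads against 6 and 11, and Rab23, a regulator of Hedgehog signalling at the cilium, 4 and 5 reads against 2 and 10. These levels overlapped for Rab28 and Rab23.

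The proteins that load, switch and read the Rab GTPases were looked up in lists of 146 genes, of which 111 could be tested. Of these 111, 2 were higher in Il10-EGFP+ T cells, beside 2.35% of all genes, and 0 were lower, beside 1.74% of all genes. There were 7 at an unadjusted p under 0.05, beside 15.5% of all genes. DESeq2's Wald test called 0 of the 111, beside 1.17% of all genes, with 2 at an unadjusted p under 0.05. The median log2 fold change was -0.02. Both Il10-EGFP+ libraries were above both others for 25 genes (22.5%), beside 22.3% of all genes, and below them for 16 (14.4%), beside 22.3% of all genes.

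Both genes called higher encode effectors, a list with 41 tested members, 0 of them called lower, and a median of 0.11. Mical1, an actin-oxidising enzyme that binds Rab8a, Rab10 and their relatives, had 16 and 13 reads in Il10-EGFP- and 35 and 40 reads in Il10-EGFP+ libraries. Its means were 20.3 ± 1.94 CPM in Il10-EGFP- and 56.6 ± 1.59 CPM in Il10-EGFP+ libraries (SD, n = 2 each). The log2 fold change was 1.47 (standard error 0.359) with an adjusted p of 0.00868 in edgeR's quasi-likelihood test. Over the alternatives the adjusted p was 0.0033 to 0.195, the highest with DESeq2, and leaving out Il10-EGFP- replicate 2 gave 0.0599 and leaving out Il10-EGFP+ replicate 2 gave 0.0704. Kif20a, a kinesin first described by its binding to Rab6 and needed for cytokinesis, had 55 and 44 reads in Il10-EGFP- and 89 and 83 reads in Il10-EGFP+ libraries. Kif20a was at 74.7 and 64.2 CPM in Il10-EGFP- and at 141 and 119.7 CPM in Il10-EGFP+ libraries (n = 2 each). The log2 fold change was 0.90 (standard error 0.228) with an adjusted p of 0.0113 in edgeR's quasi-likelihood test. Its adjusted p was 0.205 with DESeq2, 0.104 with Il10-EGFP- replicate 2 left out and 0.126 with Il10-EGFP+ replicate 1 left out, and ran from 0.00261 to 0.205 over the alternatives. The exons of both genes overlap a gene on the other strand, Smpd2 at 27 counts for Mical1 and Cdc23 at 247 counts for Kif20a, and neither neighbour passed the test. The Rab5 tether Eea1 had 167 reads in each Il10-EGFP- library and 159 and 151 in Il10-EGFP+ T cells, levels that overlapped.

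**Figure D5:**
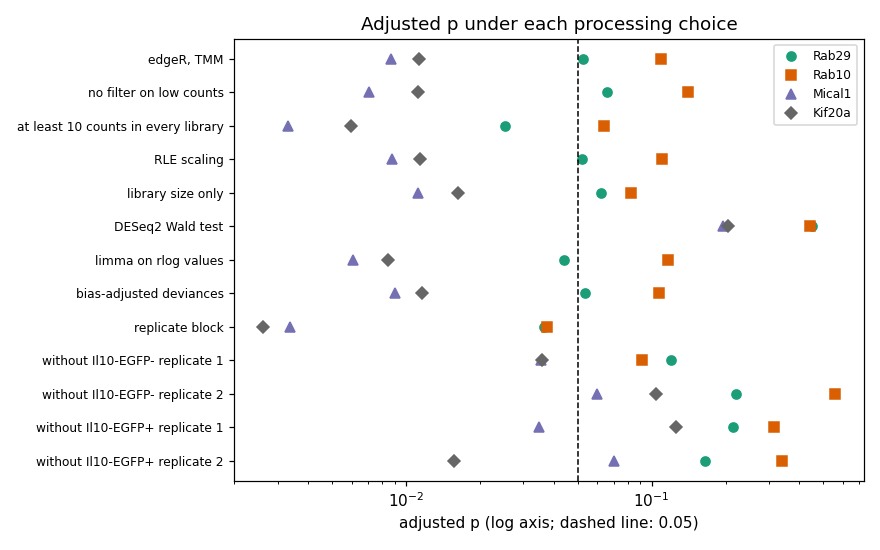
Adjusted p of Rab29, Rab10, Mical1 and Kif20a, on a log axis, under edgeR's quasi-likelihood test with TMM scaling and under other filters, scalings and tests, with a replicate block and with each library left out; the dashed line is the threshold of 0.05. Rab29 crossed the line with at least 10 counts in every library, with limma and with the block, Rab10 with the block alone, and Mical1 and Kif20a lay beyond 0.05 with DESeq2 and in 2 settings each that left out a library.

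All 9 genes of Rab prenylation and membrane extraction were tested and 0 passed, beside 4.09% of all genes. Their median was -0.18, with 7 fold changes below 0, beside 4804 of all 9608 genes. Rabggtb, a subunit of the enzyme that attaches the lipid anchor, had 162 and 139 reads in Il10-EGFP- and 92 and 128 reads in Il10-EGFP+ libraries (log2 ratio -0.35, adjusted p of 0.342, edgeR). Gdi2, which extracts Rab proteins from membranes, had 89 and 98 reads against 73 and 68 (log2 ratio -0.30, adjusted p of 0.542, edgeR). Of the exchange factors, 0 of 32 tested passed, beside 4.09% of all genes, with a median of 0.04. Madd, an exchange factor for Rab3 and Rab27 proteins, had 37 and 33 reads against 42 and 60, without overlap after scaling, and an adjusted p of 0.229 in edgeR's test. Of the GTPase activating proteins, 0 of 29 passed, beside 4.09% of all genes, with a median of -0.02. Tbc1d10a, which acts on Rab27a and Rab35, had 23 and 21 reads in Il10-EGFP- and 31 and 40 reads in Il10-EGFP+ libraries, with a log2 fold change of 0.79 and an adjusted p of 0.21 in edgeR's test. Rabggtb, Gdi2, Madd, Tbc1d10a and Eea1 were chosen after their values were seen.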

How the data were processed

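Splenic CD4+ T cells of 4 samples, 2 per population, were measured by 3′ mRNA-seq (QuantSeq FWD, with molecular identifiers; whether the counts were collapsed by them is not given in the sources used here). The authors deposited read counts per Ensembl gene, made by alignment to GRCm38 and HTSeq-count (STAR 2.5.2a and HTSeq 0.6.0 in the submitters' processing notes), and log2 values from DESeq2's regularised log transformation of those counts. The methods state that 1 replicate pair was left out as an outlier. The annotation release is not given in the sources used here. The methods and the labels name different RNA extraction kits. Neither says which mice gave which library or whether mice were pooled.

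Genes that reached 10 counts in the 4 libraries together entered edgeR 4.0.16 (legacy quasi-likelihood fit, TMM) in R 4.3.3, with Benjamini-Hochberg adjustment over all 9608 of them and a threshold of 0.05. The scripts were tested on simulated data. DESeq2 1.42.0, limma 3.58.1 with a trend on the log2 values, other filters and scalings, a term for the replicate number and fits without each library were the alternatives. Symbols were absent for 419 of 47643 identifiers, and 9321 of the 9546 symbols of the log2 table matched a tested gene. Coordinates came from GENCODE M21 and promoters from RefSeq, both on GRCm38. Replicates differed by more than sampling noise (chi-square per degree of freedom of 2.15 and 1.97).

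Named genes were Rab genes past the threshold, the 10 most counted, the 5 largest fold changes each way without overlap at a mean of at least 10 counts, Rab genes with known roles in T cells or granules, paralogs, and regulators past the threshold. The other Rab genes are given so that each of the 35 has its values. Members and lists were chosen with earlier results of these data known.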

Additional observations from a re-analysis of the deposited data

How the results depend on the processing

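The number of genes called among all 9608, 393 with edgeR and TMM, was 112 with DESeq2, which gave 4284 genes no adjusted p, and 201 to 264 with a library left out. In those fits the lone library of a population is assumed to vary like the other population. The number of Rab genes called, 0, became 1 (Rab29) with at least 10 counts in every library, where 7.46% of 5737 genes were called, and 1 (Rab29) with limma on the log2 values, where 4.26% were called, and it was 0 with each library left out and with DESeq2, no filter, the other scalings and bias-adjusted deviances. Of the regulators and effectors, 2 were called with edgeR, 0 with DESeq2 (2 at an unadjusted p under 0.05, 59 with no adjusted p) and 0 to 2 with a library left out: 0 without Il10-EGFP- replicate 2, Mical1 alone without Il10-EGFP+ replicate 1 and Kif20a alone without Il10-EGFP+ replicate 2. Of 428 values of single genes under the alternatives, 6 lost and 4 gained a call, and 0 changed sign while called. The other 418 kept their state as called or not called. These include the 17 Rab genes that DESeq2 gave no adjusted p, which were taken as not called. With the replicate number as a block, 560 of all genes (5.83%), 2 Rab genes (Rab29 at an adjusted p of 0.0364 and Rab10 at 0.0376, edgeR) and 2 regulators were called. The labels do not say that the numbers pair the libraries, and the deviations of libraries with the same number correlated at 0.0351 over 4960 genes. These deviations also hold counting noise, so the correlation cannot tell whether the numbers mark shared mice. With 2 libraries per population and under 50 counts for 21 of the 35 Rab genes, differences under 2-fold could not be resolved for most of those 21.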
